A study of Homo sapiens with 8 samples.

Results

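Genes of the endoplasmic reticulum (ER) folding and quality-control machinery were followed on 8 Affymetrix arrays of H460, an established line of human lung cancer cells. The set holds 36 genes chosen by name: chaperones, disulfide isomerases, components of ER-associated degradation, of protein translocation and export, and the stress sensors with their signalling partners. Of these, 34 were measured among the 19775 genes represented on the arrays. TXNDC5 and SYVN1 were not analysed, because their probe sets carry the symbol of a second gene as well. The 4 arrays named H460R hold cells with acquired resistance to TRAIL, a death receptor ligand of the tumour necrosis factor family, obtained over 6 months of daily exposure to doses below toxicity. The 4 arrays named H460S hold TRAIL-sensitive cells of the same line, labelled as control. The same note on daily TRAIL stands on all 8 samples, so what the control cells received is not settled. The labels name no clones, no separate cultures and no time since the last dose, so resistance, long exposure and time in culture cannot be told apart, and the p-values measure the spread between these arrays only.

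Proteins that enter the secretory pathway are threaded into the ER lumen, folded there by chaperones such as BiP and by enzymes that form disulfide bonds, and, if they fail to fold, returned to the cytosol for degradation. An accumulation of unfolded protein is sensed by the membrane proteins IRE1, PERK and ATF6. Together these induce chaperone and degradation genes, slow translation and, when stress persists, can lead to apoptosis. ATF6 and the spliced form of XBP1 are the transcription factors that act on most ER chaperone genes, while PERK acts through ATF4. Levels below are log2(signal + 1), changes are H460R minus H460S on that scale with the standard error of the limma fit (4 arrays in each group), and p-values were adjusted by Benjamini-Hochberg over all genes. A gene is said to have risen or fallen where its adjusted p was below 0.05. An array measures the average over a culture, so a change in some cells and a smaller change in all of them cannot be told apart.

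The trimmed mean signal was the same on every array and the median signal was between 32.6 and 37.4, while arrays correlated at 0.936 to 0.957 within groups and at 0.917 to 0.931 between them. Keratin genes KRT8 and KRT18 were bright in both groups, but 2 of 5 epithelial markers, EPCAM and CDH1, were below the level of the median probe set (5.01). The fifth, KRT19, averaged 11.28 ± 0.10 in H460R and 12.52 ± 0.14 in H460S and fell by 1.24 ± 0.10 (adjusted p = 0.000116). The mean level of the 3 measured leukocyte markers was 4.06 to 4.84 on H460R arrays and 3.96 to 4.94 on H460S arrays. The 3 endothelial markers averaged 3.21 to 4.11 in H460R and 3.83 to 4.05 in H460S, and the 4 fibroblast markers 4.02 to 4.99 in H460R and 4.73 to 6.12 in H460S. Each of these classes held 1 marker brighter than the median probe set over all 8 arrays. CD14 averaged 6.67 in H460R and 6.47 in H460S, PECAM1 5.73 and 6.14, and COL1A1 7.30 and 7.66. Of the fibroblast markers LUM fell by 3.27 ± 0.54 (adjusted p = 0.00337), at 2.48 ± 1.14 in H460R and 5.75 ± 0.30 in H460S, and the part of these markers in the results below was not tested. The 3' minus 5' difference of the ACTB control probe sets, a measure of RNA integrity and labelling, was 0.10 to 0.13 on H460R arrays and 0.23 on every H460S array (exact two-sided permutation p = 0.0286, the smallest that 70 splits can give), and its part in the results below was not tested. The same difference for GAPDH was -0.22 to -0.06 in H460R and -0.15 to -0.13 in H460S (exact p = 0.686).

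Most listed chaperones of the ER lumen and the channel genes SEC61A1 and SEC61B were higher in the resistant cells. The sensors IRE1 and ATF6 and the phosphatase subunit GADD34 were lower. The listed degradation genes were split, with 3 of 7 rising and 2 falling, while outside the set 12 of 21 rose and 3 fell. Of the 34 measured genes, 15 rose, 6 fell and 13 did not pass. Over all genes 30.3% passed, 14.7% higher and 15.6% lower in H460R. All 34 genes were brighter than the median probe set, and bright genes pass more often. Among all genes with a mean level above 9, a limit set after the data were seen, 31.1% rose and 24.7% fell, against 14 and 3 of the 27 members above it. The shares over all genes and over bright genes apply to the class counts below as well, inside and outside the set. The median change of the 34 genes was 0.23, and that of all genes -0.03. In 17 of the 34 genes all H460R arrays were above all H460S arrays, and in 10 all were below, where 16.5% and 17.4% of all genes did so. Of the 4191 genes with a mean level above 9, 1552 were wholly above and 1191 wholly below. The 27 members above that level held 16 and 6.

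**Figure D1:**
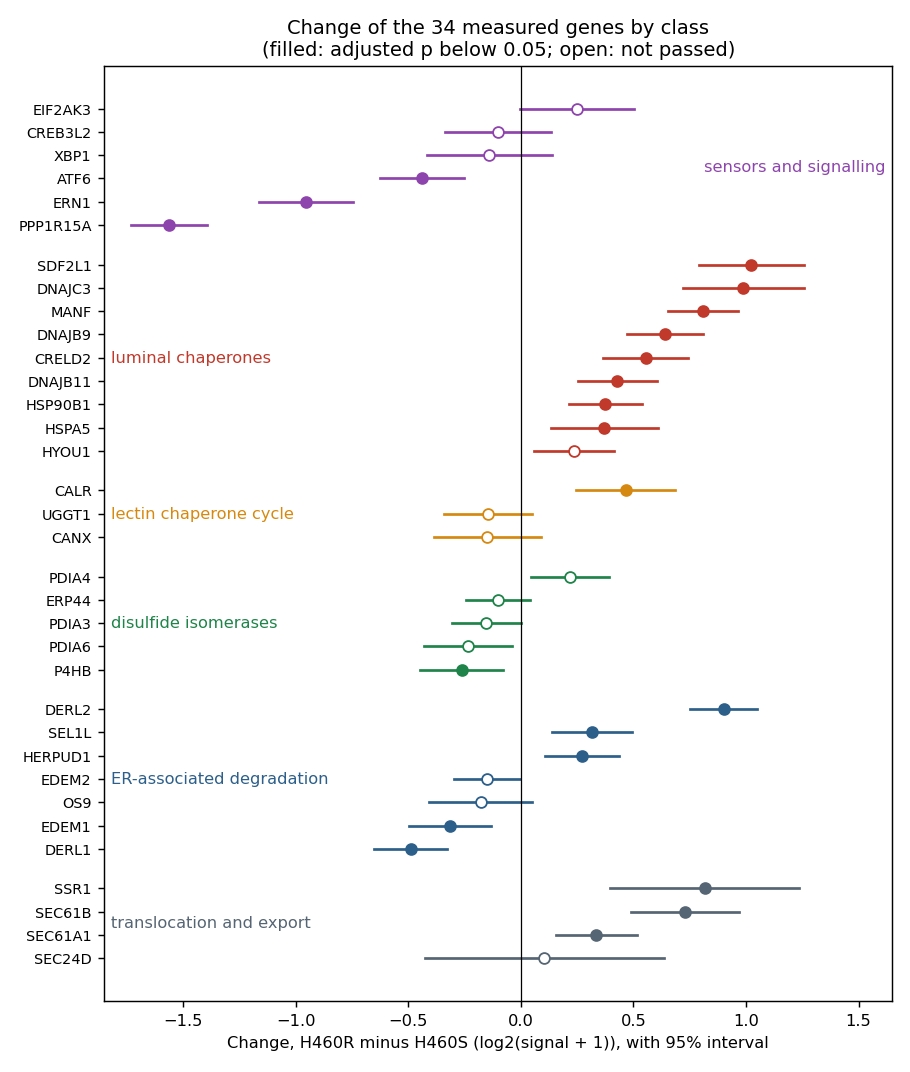
Change of each of the 34 measured genes, H460R minus H460S on the log2(signal + 1) scale (horizontal axis), with the 95% interval of the limma fit (lines, n = 4 per group), grouped by class and ordered by change. All 9 luminal chaperones lie to the right of 0, from 0.24 for HYOU1 to 1.02 for SDF2L1, while PPP1R15A (-1.56) and ERN1 (-0.96) lie farthest to the left.

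Among the 6 sensors and signalling genes 3 fell, none rose and 3 did not pass, with a median change of -0.29. The largest was that of PPP1R15A, which encodes GADD34, the phosphatase subunit that ends the translational block set by PERK. Its level was 7.96, 8.02, 8.14 and 8.10 on the H460R arrays, against 9.60, 9.55, 9.69 and 9.64 on the H460S arrays. The gap between the groups was many times the spread within either, and the change of -1.56 ± 0.07 (adjusted p = 1.50e-05) corresponds to a 2.95-fold lower signal. A second PPP1R15A probe set changed by -1.50 ± 0.14 (adjusted p = 0.000548 over all probe sets).

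ERN1, which encodes IRE1, the kinase and RNase that splices XBP1 mRNA, fell by 0.96 ± 0.09 (adjusted p = 0.000255). Its level was 7.16, 7.06, 7.22 and 6.91 in H460R, against 8.08, 8.05, 7.96 and 8.09 in H460S, with no overlap. Its other probe sets were both dimmer. At a mean level of 5.51, 1 changed by -0.97 ± 0.13 (adjusted p = 0.00233 over all probe sets). The other, at 5.84, changed by -0.10 ± 0.16 (adjusted p = 0.753). ATF6, the membrane-bound transcription factor that is released by cleavage in the Golgi, had levels of 9.73, 9.58, 9.62 and 9.74 in H460R, against 10.23, 10.07, 10.12 and 10.01 in H460S. These groups did not overlap either, and the change was -0.44 ± 0.08 (adjusted p = 0.00506). Its 3 other probe sets changed by -0.29 to -0.18 and did not pass.

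The third sensor, EIF2AK3, encodes PERK, the kinase that phosphorylates eIF2alpha. Its level was 8.58, 8.55, 8.44 and 8.23 in H460R and 8.02, 8.30, 8.29 and 8.20 in H460S. The groups overlapped through H460R-4, and the change of 0.25 ± 0.11 (adjusted p = 0.134, 95% interval -0.01 to 0.50) did not pass. XBP1, whose spliced mRNA encodes the active factor, had levels of 9.54, 9.82, 9.72 and 9.34 in H460R and 9.65, 9.85, 9.76 and 9.73 in H460S. Its change was -0.14 ± 0.12 (adjusted p = 0.441, 95% interval -0.42 to 0.14), a dimmer probe set changed by 0.51 ± 0.32 (adjusted p = 0.348 over all probe sets), and splicing was not measured. CREB3L2, a related ER-bound factor that acts on secretory pathway genes, changed by -0.10 ± 0.10 (adjusted p = 0.523).

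Outside the set, DDIT3, TRIB3 and ATF4 fell. DDIT3, which encodes CHOP, averaged 7.77 ± 0.12 in H460R and 9.54 ± 0.09 in H460S (SD, n = 4 each), a change of -1.78 ± 0.09 (adjusted p = 1.83e-05). TRIB3, a pseudokinase gene induced by ATF4 and CHOP, averaged 10.71 ± 0.04 in H460R and 12.44 ± 0.10 in H460S, and ATF4 itself 12.36 ± 0.05 in H460R and 12.87 ± 0.04 in H460S. TRIB3 fell by 1.73 ± 0.07 and ATF4 fell by 0.51 ± 0.06. PPP1R15B, the other partner subunit of the eIF2alpha phosphatase, changed by -0.17 ± 0.13 (adjusted p = 0.405). Of the 12 other measured sensor and signalling genes 5 fell and 1 rose. That one was CREB3L1, a relative of CREB3L2, at 5.06 ± 0.25 in H460R and 3.85 ± 0.75 in H460S. Its H460S mean lay below the median probe set. MBTPS1 and MBTPS2, the proteases that cleave ATF6, changed by -0.25 ± 0.07 and -0.44 ± 0.06 and passed. PPP1R15B, MBTPS1 and MBTPS2 are named after their values were seen.

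**Figure D2:**
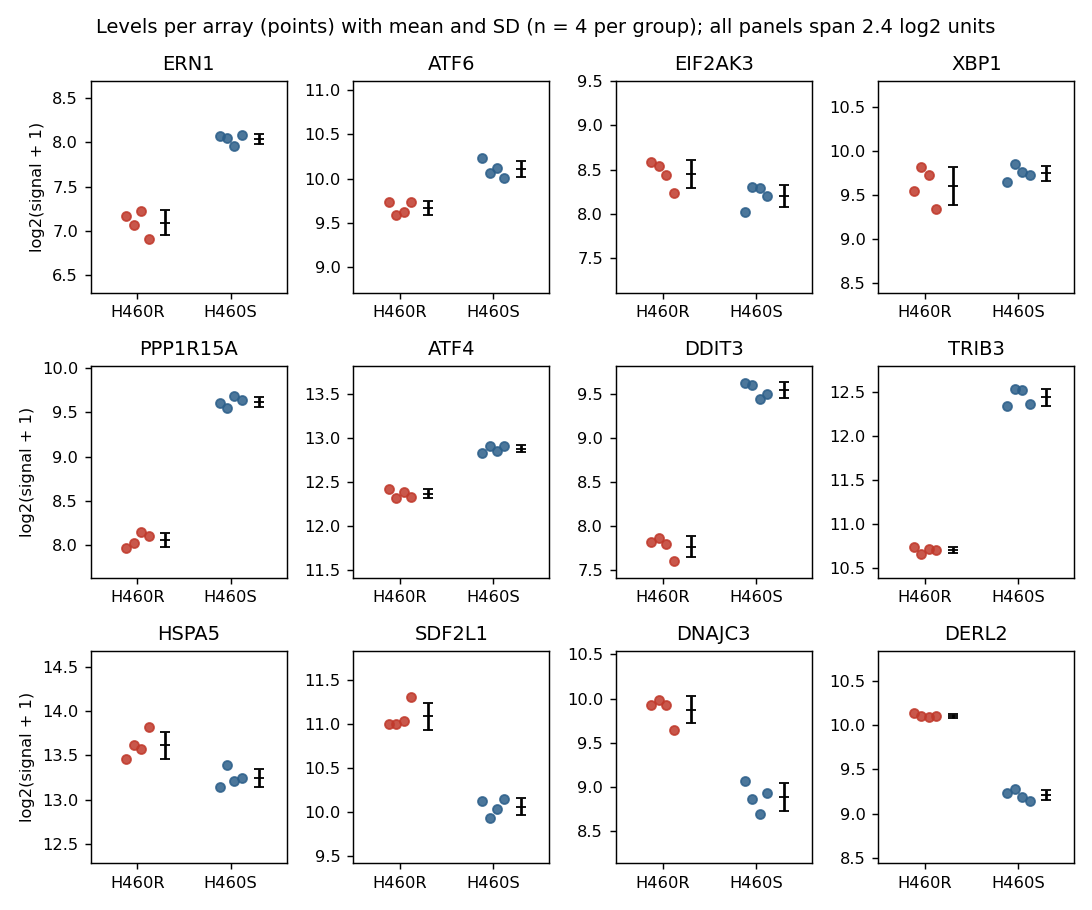
Levels per array on the log2(signal + 1) scale (vertical axes, all spanning the same range) of 5 sensors and signalling genes, of ATF4, DDIT3 and TRIB3, and of 4 genes of folding and degradation, with H460R left of H460S and the mean and SD of the 4 arrays beside the points. ERN1, ATF6, PPP1R15A, ATF4, DDIT3 and TRIB3 are lower in H460R with no overlap, EIF2AK3 and XBP1 overlap, and HSPA5, SDF2L1, DNAJC3 and DERL2 are higher.

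Among luminal chaperones and their partners 8 of 9 genes rose, none fell, and in all 9 every H460R array was above every H460S array. The median change was 0.55. SDF2L1, an ER protein that works with the BiP cycle, had levels of 11.00, 11.01, 11.04 and 11.31 in H460R, against 10.13, 9.94, 10.03 and 10.15 in H460S. H460R-4 was the highest, and the rise was 1.02 ± 0.10 (adjusted p = 0.000305), or 2.03-fold. DNAJC3, a BiP co-chaperone also known as an inhibitor of PERK, had levels of 9.93, 9.99, 9.93 and 9.65 in H460R, against 9.06, 8.86, 8.69 and 8.93 in H460S. It rose by 0.99 ± 0.11 (adjusted p = 0.000670), and its 3 other probe sets rose by 0.76 to 1.22. H460R-4, here the lowest of its group, still lay above all sensitive arrays.

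MANF, a secreted ER-stress protein that binds BiP, had levels of 11.45, 11.39, 11.51 and 11.53 in H460R, against 10.62, 10.71, 10.69 and 10.62 in H460S, and rose by 0.81 ± 0.07 (adjusted p = 0.000152). DNAJB9, the co-chaperone ERdj4, which delivers BiP to IRE1 and to degradation substrates, was at 9.09 to 9.21 in H460R and at 8.41 to 8.59 in H460S. Its rise of 0.64 ± 0.07 (adjusted p = 0.000580) depended on the probe set. Another, at a mean level of 7.20, changed by 0.71 ± 0.32 (adjusted p = 0.178 over all probe sets). The dimmest, at 5.78, which carries no cross-hybridisation suffix, changed by 0.05 ± 0.22. The mean of all DNAJB9 probe sets changed by 0.47 (adjusted p = 0.0827). CRELD2, an ER-resident protein induced by stress, rose by 0.55 ± 0.08 (adjusted p = 0.00180), with 11.19 to 11.39 in H460R and 10.62 to 10.83 in H460S. DNAJB11, the co-chaperone ERdj3, rose by 0.43 ± 0.07 (adjusted p = 0.00427), with 11.65 to 11.84 in H460R and 11.24 to 11.35 in H460S.

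The major chaperones themselves changed less. HSPA5, which encodes BiP, the ER HSP70 that holds the sensors inactive, had levels of 13.46, 13.61, 13.57 and 13.82 in H460R, against 13.14, 13.39, 13.21 and 13.25 in H460S. H460R-1 lay just above H460S-2, with no overlap, and the rise was 0.37 ± 0.10 (adjusted p = 0.0288), or 1.29-fold. It did not pass without H460R-2 (adjusted p = 0.0667), H460R-3 (0.0593), H460S-1 (0.0690), H460S-3 (0.0723) or H460S-4 (0.0653), with changes of 0.30 to 0.42 over all 8 omissions. A second, dimmer probe set averaged 9.96 in H460R and 8.78 in H460S and rose by 1.18 ± 0.09 (adjusted p = 0.000259 over all probe sets, where the brighter one had 0.0607). Quantile normalization gave 0.60 and the mean of both probe sets 0.77, and both passed. HSP90B1, the ER HSP90 known as GRP94, was at 12.16 to 12.30 in H460R and 11.79 to 11.92 in H460S and rose by 0.37 ± 0.07 (adjusted p = 0.00552), while another probe set changed by 0.06 ± 0.15 and the mean of its probe sets by 0.22 (adjusted p = 0.124). HYOU1, the nucleotide exchange factor GRP170, was at 11.28 to 11.49 in H460R and 11.09 to 11.25 in H460S. Its change of 0.24 ± 0.08 (adjusted p = 0.0523) missed the threshold, and passed without H460S-1 (0.27, adjusted p = 0.0471) and after median centring of the arrays (0.31, adjusted p = 0.0185).

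The ER stress response element (ERSE) is the promoter motif through which ATF6 and XBP1 act on chaperone genes, so promoters were searched for it. RefSeq promoter windows of 250 bases before to 50 bases after each start (GRCh38.p14) were given for 33 of the 36 genes. Motifs sought on both strands were ERSE (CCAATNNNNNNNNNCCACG), ERSE-II (ATTGGNCCACG) and the core of the XBP1 site (TGACGTGG). ERSE was found in 27 of 35116 windows (0.0769%), which belong to 25 genes, 7 of them members. ERSE-II was found in 19 windows (0.0541%), with 3 member genes, and the XBP1 core in 256 windows (0.729%), with 2. The ERSE and ERSE-II sites of the 10 members that hold one are shown so that their letters can be compared. Each is given in the direction of the motif, with 5 flanking bases on either side and the 2 motif blocks in capitals.

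HSPA5 ERSE: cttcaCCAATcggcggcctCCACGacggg
HSP90B1 distal ERSE: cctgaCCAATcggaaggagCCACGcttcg
HSP90B1 proximal ERSE: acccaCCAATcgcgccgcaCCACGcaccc
CRELD2 ERSE: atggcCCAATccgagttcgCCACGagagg
CALR ERSE: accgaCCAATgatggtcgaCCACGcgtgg
CANX ERSE: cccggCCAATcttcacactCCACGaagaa
PDIA6 ERSE: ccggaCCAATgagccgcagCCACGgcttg
XBP1 ERSE: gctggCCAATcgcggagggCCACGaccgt
SDF2L1 ERSE-II: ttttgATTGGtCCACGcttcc
HYOU1 distal ERSE-II: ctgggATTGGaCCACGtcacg
HYOU1 proximal ERSE-II: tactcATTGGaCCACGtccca
HERPUD1 ERSE-II: cgccgATTGGgCCACGttggg

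The HSPA5 run lies at chr9:125241386-125241414 (gene on the minus strand), the HSP90B1 runs at chr12:103930211-103930239 and chr12:103930316-103930344 (plus strand) and the SDF2L1 run at chr22:21642109-21642129 (plus strand). ERSE began 66 bases before the start of HSPA5 (position -66) and at position -52 in XBP1. At the distal HYOU1 site ERSE-II overlapped an XBP1 core, the only overlap among the members' sites. The 10 members with ERSE or ERSE-II had a median change of 0.32: 6 rose (HSPA5, HSP90B1, SDF2L1, CRELD2, CALR and HERPUD1), none fell, and XBP1, HYOU1, CANX and PDIA6 did not pass. Of the 21 measured members with a promoter entry and neither motif, 9 rose, 5 fell and 7 did not pass, with a median of 0.22. Of the 5 luminal chaperones with a match 4 rose, with a median change of 0.37 over the 5, and the 4 without (DNAJB9, DNAJB11, DNAJC3 and MANF) all rose, with a median of 0.72. Outside the set 27 measured genes held ERSE or ERSE-II, of which 7 rose, none fell and 20 did not pass, with a median of 0.14. Beside these counts, 14.7% of all genes rose and 15.6% fell. Among genes with a mean level above 9, the shares were 31.1% and 24.7%. A link between motif and change was not tested. A match is a run of letters and not a bound site. Only exact blocks within the windows were counted. Genes without a match may hold a near match or a site farther away, so the split does not show absence of the element.

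The 250 bases before the start of HSPA5 (chr9:125241344-125241593, minus strand) and of SDF2L1 (chr22:21642052-21642301, plus strand) are printed. They hold the exact matches found for the BiP gene and for the listed chaperone gene with the largest rise. Capitals mark the blocks of ERSE or ERSE-II, which in SDF2L1 runs on the opposite strand.

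HSPA5 promoter: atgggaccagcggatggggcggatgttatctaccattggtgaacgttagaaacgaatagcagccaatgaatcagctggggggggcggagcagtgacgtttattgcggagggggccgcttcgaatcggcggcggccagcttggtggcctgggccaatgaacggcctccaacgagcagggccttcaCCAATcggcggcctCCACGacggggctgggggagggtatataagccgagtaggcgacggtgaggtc
SDF2L1 promoter: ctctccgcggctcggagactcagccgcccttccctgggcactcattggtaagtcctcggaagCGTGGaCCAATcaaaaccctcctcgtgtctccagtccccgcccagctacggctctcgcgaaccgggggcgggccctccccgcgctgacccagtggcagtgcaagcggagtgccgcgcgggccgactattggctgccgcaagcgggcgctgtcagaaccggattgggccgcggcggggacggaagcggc

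In the lectin chaperone cycle, which holds glycoproteins by their trimmed sugars until they fold, 1 of 3 genes rose. CALR, the soluble lectin calreticulin, had levels of 10.88, 10.94, 11.22 and 11.11 in H460R, against 10.55, 10.54, 10.61 and 10.59 in H460S, and rose by 0.47 ± 0.09 (adjusted p = 0.00796). H460R arrays were more spread than H460S arrays, without overlap. A dimmer CALR probe set, at a mean level of 10.03, changed by only 0.14 ± 0.11 (adjusted p = 0.464 over all probe sets). The dimmest, at 8.12, rose by 0.59 ± 0.15 (adjusted p = 0.0313). CANX, the membrane-bound lectin calnexin, was at 13.07 to 13.45 in H460R and 13.31 to 13.48 in H460S and changed by -0.15 ± 0.10 (adjusted p = 0.338, 95% interval -0.39 to 0.09). A dimmer CANX probe set went the other way, with 9.27 in H460R and 8.71 in H460S, a rise of 0.56 ± 0.11 (adjusted p = 0.0111 over all probe sets). UGGT1, the glucosyltransferase that marks misfolded glycoproteins for another round, changed by -0.15 ± 0.08 (adjusted p = 0.245). Among 5 other genes of the cycle 3 fell and none rose. CLGN, the calnexin relative calmegin, averaged 4.25 ± 0.30 in H460R and 6.08 ± 0.44 in H460S and fell by 1.82 ± 0.25. Its H460R mean lay below the median probe set. UGGT2 fell by 0.38 ± 0.07, and GANAB, a subunit of glucosidase II, by 0.29 ± 0.08.

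Disulfide isomerases were little changed, and their median change was -0.15. In 4 of the 5 measured genes all H460R arrays were below all H460S arrays, but only P4HB passed. P4HB, the prototype protein disulfide isomerase, had levels of 12.86, 12.87, 12.84 and 13.06 in H460R, against 13.26, 13.11, 13.14 and 13.17 in H460S, and fell by 0.26 ± 0.08 (adjusted p = 0.0413). H460R-4 lay just under the lowest sensitive array. That call was lost when any array but H460R-4 was left out, with adjusted p-values of 0.0658 to 0.108, and after median centring (-0.19, adjusted p = 0.110) or quantile normalization (-0.14, adjusted p = 0.114). PDIA6 changed by -0.24 ± 0.08 (adjusted p = 0.0724) and passed without H460R-4 (-0.30, adjusted p = 0.0180). PDIA3, the partner of calnexin and calreticulin also known as ERp57, changed by -0.15 ± 0.06 (adjusted p = 0.124), and ERP44, which retains oxidoreductases in the early secretory pathway, by -0.10 ± 0.06 (adjusted p = 0.269). PDIA4, or ERp72, was the exception in direction, at 12.26 to 12.31 in H460R and 11.96 to 12.15 in H460S, with a change of 0.22 ± 0.07 (adjusted p = 0.0620) that did not pass.

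Of the 12 measured redox genes outside the set 3 rose and 4 fell. ERP29, a chaperone of the isomerase family without redox activity, fell by 0.79 ± 0.07, and ERO1A, the oxidase that recharges the isomerases and a known hypoxia target, by 0.67 ± 0.07. Its paralog ERO1B rose by 0.66 ± 0.19 (adjusted p = 0.0370), with overlapping groups, and the isomerase-like gene TXNDC11 rose by 0.63 ± 0.07. The 2 oxidase genes thus moved in opposite directions. The other luminal folding factors were mixed as well, with 4 of 11 rising and 2 falling. SERPINH1, the collagen chaperone HSP47, rose by 1.14 ± 0.14, FKBP14, a prolyl isomerase, by 0.78 ± 0.07 and SDF2, a paralog of SDF2L1, by 0.33 ± 0.08, while FKBP10, another collagen-binding prolyl isomerase, fell by 0.52 ± 0.10. A test that the 9 listed chaperones differ from these 11 was not made.

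**Figure D3:**
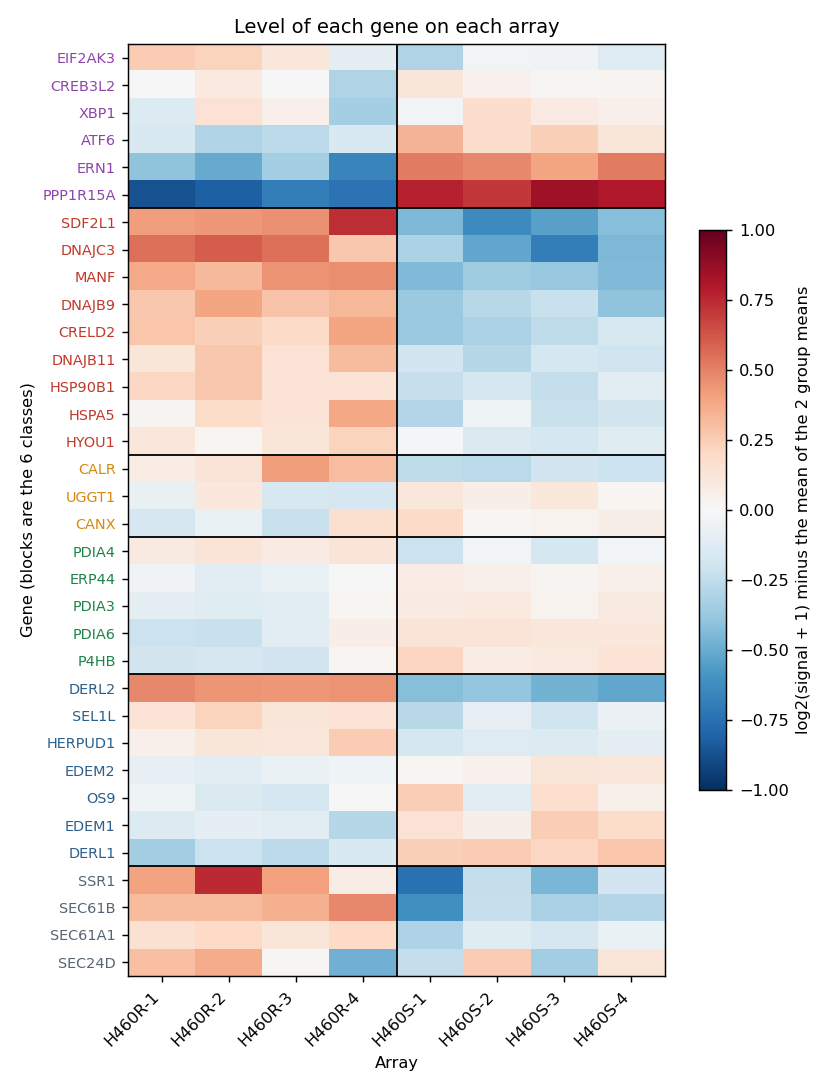
Level of each of the 34 measured genes on each array (columns, H460R left of H460S), as log2(signal + 1) minus the mean of the 2 group means (colour, red above and blue below), in blocks by class. Luminal chaperones are red or near white on all H460R arrays and blue or near white on all H460S arrays. SSR1 is palest on H460R-4 among the resistant arrays, and the disulfide isomerases are pale throughout.

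The listed genes of ER-associated degradation were split, with 3 of 7 measured genes rising, 2 falling and 2 not passing. DERL2, a derlin of the channel that moves substrates back to the cytosol, had levels of 10.14, 10.10, 10.09 and 10.10 in H460R, against 9.23, 9.27, 9.18 and 9.14 in H460S. Its rise of 0.90 ± 0.06 (adjusted p = 7.99e-05), or 1.87-fold, was far beyond the spread of either group, and a second probe set rose by 0.53 ± 0.12 (adjusted p = 0.0175 over all probe sets). Its paralog DERL1 was at 9.83, 9.97, 9.92 and 10.03 in H460R, against 10.42, 10.44, 10.39 and 10.46 in H460S, and fell by 0.49 ± 0.07 (adjusted p = 0.00166). The DERL1 call rested on 1 probe set. The 3 others, all dimmer, changed by -0.15 ± 0.16, -0.05 ± 0.10 and, below the median probe set, -0.86 ± 0.78, and the mean of all by -0.39 (adjusted p = 0.281). The paralogs moved in opposite directions on the probe sets used.

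HERPUD1, a stress-induced organiser of the degradation complex, was at 11.74 to 11.93 in H460R and 11.51 to 11.59 in H460S and rose by 0.27 ± 0.07 (adjusted p = 0.0234). SEL1L, the adaptor of the ubiquitin ligase, was at 10.41 to 10.51 in H460R and 10.01 to 10.23 in H460S and rose by 0.31 ± 0.08 (adjusted p = 0.0179). The HERPUD1 call was lost without H460R-2, H460R-3, H460S-1, H460S-2 or H460S-3 (adjusted p = 0.0531 to 0.0586), and that of SEL1L without H460R-2 (0.0530) or H460S-3 (0.0514). EDEM1, a mannosidase-like protein that targets glycoproteins for disposal, was at 8.28 to 8.47 in H460R and 8.63 to 8.81 in H460S and fell by 0.31 ± 0.08 (adjusted p = 0.0198). It did not pass without H460S-3 (adjusted p = 0.0561) or H460S-4 (0.0527), nor after median centring (-0.24, adjusted p = 0.127). EDEM2 changed by -0.15 ± 0.06 (adjusted p = 0.117) with no overlap, and OS9, the lectin that reads trimmed glycans, by -0.18 ± 0.10 (adjusted p = 0.230) with overlap.

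More of the degradation machinery outside the set rose than fell: 12 of 21 measured genes rose, 3 fell and 6 did not pass. The median change was 0.25. Among all genes with a mean level above 9, 31.1% rose and 24.7% fell. SELENOK and SELENOS, selenoproteins that bind derlins and the ATPase p97, rose by 0.93 ± 0.11 and 0.85 ± 0.06. The genes of p97 and its cofactors, VCP, UFD1 and NPLOC4, rose by 0.83 ± 0.07, 0.35 ± 0.09 and 0.36 ± 0.09, while UBXN4, which recruits p97 to the ER membrane, fell by 0.43 ± 0.13 (adjusted p = 0.0470), with overlapping groups. These 4 are named after their values were seen. Of the other genes that fell, NGLY1, the cytosolic N-glycanase, averaged 9.38 ± 0.06 in H460R and 10.98 ± 0.05 in H460S (SD, n = 4 each), a change of -1.60 ± 0.07 (adjusted p = 1.04e-05). MAN1B1, the ER mannosidase, averaged 8.24 ± 0.09 in H460R and 9.17 ± 0.06 in H460S.

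**Figure D4:**
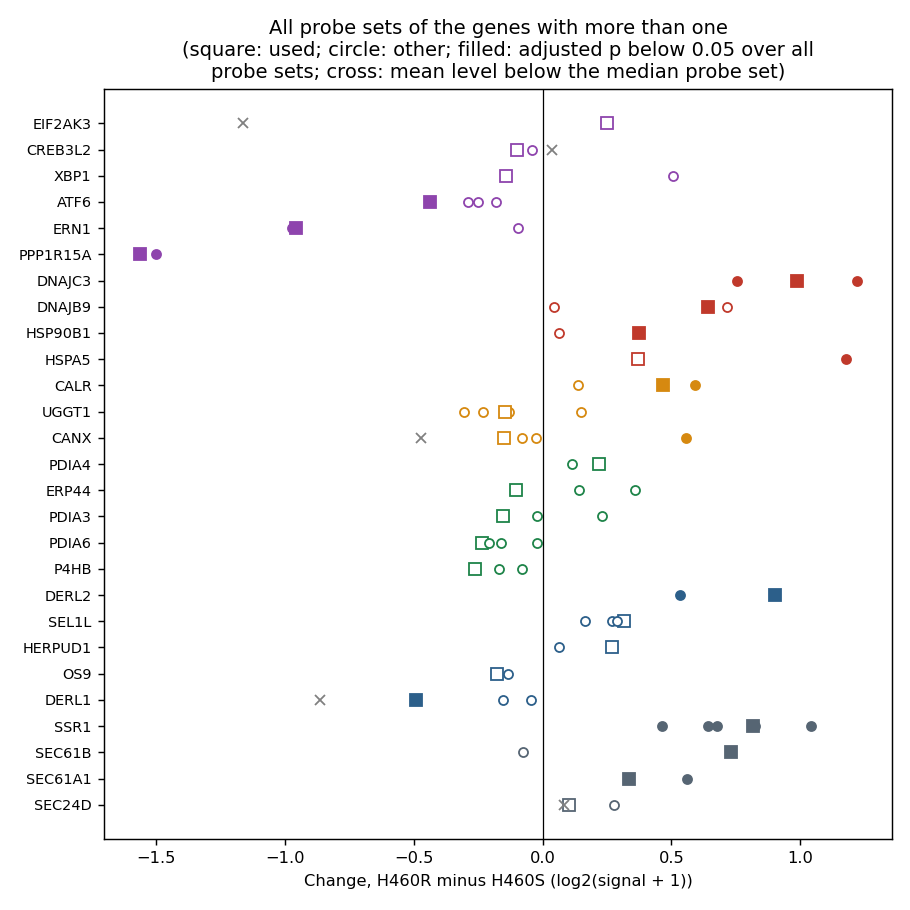
Change of every probe set of the 27 measured genes with more than 1 (horizontal axis, H460R minus H460S on the log2(signal + 1) scale), with the probe set used as a square, filled symbols for those that passed over all probe sets and crosses for those dimmer than the median probe set. DNAJC3, SSR1, DERL2 and PPP1R15A have filled symbols on 1 side of 0 throughout, while HSPA5, CANX and DERL1 differ between their probe sets.

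Of the 4 listed genes of translocation and export 3 rose and 1 did not pass. SEC61B, the beta subunit of the channel, was at 12.05, 12.05, 12.08 and 12.21 in H460R, against 11.12, 11.50, 11.41 and 11.44 in H460S, and rose by 0.73 ± 0.10 (adjusted p = 0.00153). H460S-1 was the lowest array. A second, dim probe set changed by -0.08 ± 0.18, and with both averaged the change was 0.33 (adjusted p = 0.0611). SSR1, the alpha subunit of the translocon-associated complex TRAP, had levels of 11.57, 11.91, 11.58 and 11.25 in H460R, against 10.42, 10.94, 10.71 and 10.98 in H460S. It had the largest standard error of the members that passed, and rose by 0.82 ± 0.18 (adjusted p = 0.0120), while its 5 other probe sets rose by 0.46 to 1.04. SEC61A1, the pore-forming subunit, rose by 0.34 ± 0.08 (adjusted p = 0.0139), with 10.32 to 10.41 in H460R and 9.89 to 10.14 in H460S. SEC24D, a cargo adaptor of the COPII export coat, was dim and scattered, at 6.11 to 6.96 in H460R and 6.24 to 6.84 in H460S, and changed by 0.10 ± 0.23 (adjusted p = 0.789).

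Of 26 other measured genes of translocation and export 12 rose, 1 fell and 13 did not pass. SPCS3, a subunit of the signal peptidase, rose by 1.17 ± 0.09 (adjusted p = 0.000140), and SSR3, another TRAP subunit, by 0.71 ± 0.08. SRPRB, a subunit of the receptor for the signal recognition particle, rose by 0.66 ± 0.10 and SEC13, a component of the COPII coat, by 0.61 ± 0.07. Some other parts of the channel and of TRAP did not pass. SEC61A2 changed by -0.52 ± 0.17 (adjusted p = 0.0529), SEC63 by -0.20 ± 0.10, SSR2 by 0.09 ± 0.09 and SSR4 by -0.21 ± 0.09. In the same class SEC62 rose by 0.28 ± 0.07 (adjusted p = 0.0258) and TRAM1 by 0.44 ± 0.09 (adjusted p = 0.0103). All of these are named after their values were seen. Over the 6 classes together, 32 of the 87 measured genes outside the set rose and 18 fell, with a median change of 0.09. Of these 87 genes 83 were brighter than the median probe set. Among all genes 14.7% rose and 15.6% fell, and among those with a mean level above 9, 31.1% and 24.7%.

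**Figure D5:**
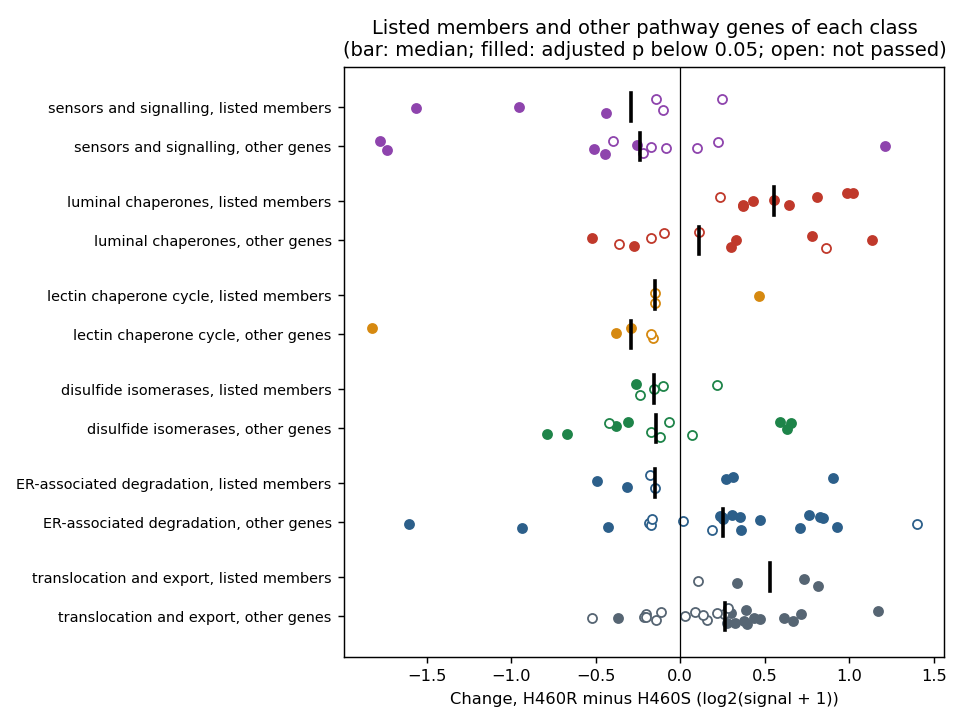
Changes (horizontal axis, H460R minus H460S on the log2(signal + 1) scale) of the listed genes and of the other pathway genes in each of the 6 classes, with the median as a bar. Sensors and signalling genes have medians of -0.29 among the listed and -0.24 among the other genes, and translocation and export medians of 0.53 and 0.27, while the listed degradation genes have a median of -0.15 and the other degradation genes 0.25.

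Alternative probe sets gave no call against those above. Of the 55 other probe sets of 27 genes, 14 passed in the direction of the used call and 40 did not pass. None passed against a used call. The remaining 1, of CANX, rose by 0.56 where the probe set used changed by -0.15 and was not called. Over all probe sets 19.5% passed. Of these 55, 50 were brighter than the median probe set. Within the resistant group, H460R-4 was the highest array for 19 of the 34 genes and the lowest for 10. Within the sensitive group H460S-1 was the highest array for 9 genes and the lowest for 12. Without H460R-4, 15 genes rose and 7 fell.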

How the data were processed

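Per the labels, total RNA of H460 cells was extracted with Trizol, biotin-labelled and hybridised to 8 arrays, 4 per group. The table deposited by the authors holds 1 linear intensity per array for each of 54675 probe sets. RMA is named in the submitters' processing notes, but these intensities go below 1 and share a trimmed mean, so the step that made them is not settled. Such scaling hides changes in total RNA per cell. Values were transformed to log2(signal + 1), which understates changes of dim genes. Names came from the platform annotation, updated through gene identifiers to GRCh38.p14. Probe sets with several symbols were left out, and the probe set with the highest mean represented each of 19775 genes. The 2 groups were tested with limma 3.58.1 under R 4.3.3, using lmFit and eBayes and Benjamini-Hochberg adjustment over all genes, and likewise over 54613 probe sets. Tested on simulated data for this comparison and these 19775 genes, the fit called 35.8% of 1.5-fold changes, 82.1% at 2-fold and 97.0% at 4-fold. Changed genes numbered only 67, 67 and 66, all brighter than the median probe set. In the data 30.3% of all genes passed, so the simulated adjustment was stricter and these rates do not carry over. Alternatives covered the pseudocount, the choice of probe sets, dim genes, normalization, array weights, the prior, a replicate block, a GAPDH covariate and leaving out each array. The members, classes and lists were chosen with earlier results of these data known. All members could be named, and of the other pathway genes up to 4 per class with the largest changes that passed, with ATF4, DDIT3 and TRIB3. Promoters and motif searches used RefSeq windows in Python 3.11.15. Sequences of proteins were not used here. The number of arrays limits the precision.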

Additional observations from a re-analysis of the deposited data

Results flagged for a closer look

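Within a group of 4 arrays, 3 gene values and 2 control measures stood apart from the rest by a gap beyond Dixon's 95% limit for its share of the group's range, among 74 groups examined, where chance gives about 3.7. H460R-4 was the array concerned in all 3 genes. DNAJC3 was low on H460R-4 at 9.65, against 9.93 to 9.99 on the other resistant arrays (gap share 0.8295). SDF2L1 was high there at 11.31, against 11.00 to 11.04 (gap share 0.873), and P4HB was high at 13.06, against 12.84 to 12.87 (gap share 0.880). For the 3' minus 5' difference of the ACTB control probe sets, H460R-2 was high at 0.133, against 0.102 to 0.107 (gap share 0.8295), and H460S-3 low at 0.226, against 0.231 (gap share 0.908).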

How the results depend on the processing

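Over 18 alternatives, 541 of 605 recomputed changes of single genes kept their direction and side of the threshold, 40 lost the call, 16 gained one and 8 turned. The count of risen genes was 10 to 17 and that of fallen genes 4 to 9. Both were lowest with the mean of all probe sets (10 and 4 of 34 genes) and with probe sets without a cross-hybridisation suffix (10 and 4 of only 27). Without such suffixes CANX turned to 0.56 and passed, ERP44 turned to 0.36, and the class medians became 0.49 for luminal chaperones, 0.56 for the lectin cycle (reversed), -0.022 for disulfide isomerases and 0.73 for translocation and export, as fewer or other probe sets then stand for the genes. With the mean of all probe sets EIF2AK3 turned to -0.46, XBP1 to 0.18, ERP44 to 0.13 and PDIA3 to 0.019, none passing, and the isomerase median was 0.019 (reversed). SEC24D lay between -0.0026 (without H460R-2) and 0.28 (without H460R-4) when single arrays were left out. After quantile normalization CANX was 0.016 and the lectin median was 0.016 (reversed), and after median centring the chaperone median was 0.63 and the isomerase median -0.080. Centring moved the median change of all genes to 0.04, and quantile normalization to 0.00348. With the replicate number as a block, 11 genes rose and 4 fell, and HSPA5, HERPUD1, SEL1L, SEC61A1, EDEM1 and P4HB did not pass. Deviations of same-numbered arrays correlated at -0.03 to 0.01, so the numbers were not taken to pair arrays. When adjusted over all probe sets, HSPA5, P4HB, HERPUD1, SEL1L and EDEM1 did not pass either. Calls kept under every alternative were 8 of 15 rises and 3 of 6 falls. Among calls under 1.5-fold, those of ATF6, DNAJB11, CRELD2 and CALR were kept throughout. Those of HSPA5, HSP90B1, SEC61A1, HERPUD1, SEL1L, EDEM1, DERL1 and P4HB were lost under at least 1 alternative. Above 1.5-fold, DNAJB9 and SEC61B lost theirs.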
